A study of Mus musculus with 2 samples.

Results

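The 7 genes described here, Cd1d1, Slamf1, Slamf6, Slamf7, Ly9, Sh2d1a and Fyn, encode the CD1d ligand-presenting molecule, receptors of the SLAM family, their adaptor SAP and its partner kinase. They were chosen by gene symbol, and all 7 have a row among the 32285 features of the count matrices. RNA was counted in single YFP+ thymus cells of 2 libraries. The cKO library came from Tbx21Cre Ets1F/F Rosa26-YFP+ mice and the control library from Tbx21Cre Rosa26-YFP+ mice. The Cre allele and the YFP reporter were therefore shared, and the cKO mice differed by floxed alleles of Ets1, the gene of an ETS-family transcription factor. Cre is driven by Tbx21, the T-bet gene, so YFP marks cells that have expressed it. The labels state no age. Each library pooled 2 mice that cannot be told apart, and with 1 library per genotype no test was possible. Intervals are exact at 95% and cover counting error only.

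Invariant NKT (iNKT) cells carry a T cell receptor built on Trav11 and recognise lipids held by CD1d. They are selected in the thymus by double-positive (DP) thymocytes, which present CD1d and engage SLAM receptors on the selected cell. SLAM receptors recruit SAP, encoded by Sh2d1a, which in turn recruits the Src-family kinase Fyn, and mice without SAP or Fyn have few iNKT cells.

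Cells were placed in 6 classes by marker UMIs, and a cell could belong to more than 1. DP cells held Rag1 (57 cKO and 58 control cells), Trav11+ T cells held Trav11 and a CD3 gene (149 and 177), CD3+ Cd8b1-negative T cells held a CD3 gene without Cd8b1 (2976 and 6236), and CD8 T cells held a CD3 gene and Cd8b1 (621 and 907). NK cells held Ncr1 without CD3 (53 and 105), and B cells held Cd79a (481 and 308). Of the Trav11+ T cells 139 of 149 in the cKO and 164 of 177 in the control library were also CD3+ Cd8b1-negative T cells.

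The libraries differed in more than genotype. After filtering, 5903 cKO cells had a median of 5533 UMIs and 7395 control cells a median of 2666 UMIs. Of all barcodes 29 occurred in both libraries, 14 of them among the cells kept. Cells with Epcam and no CD3 UMI made up 29.0% of cKO and 0.0811% of control cells. In the cKO all 10 gut epithelium markers were detected in them (72551 CPM summed), while 7 of the 10 were at 0 in the 6 control cells (338 CPM). Barcodes over the mitochondrial limit made up 28.6% of the cKO and 6.76% of the control library. The part of these differences in the results was not tested. Ets1 stood at 168 CPM (a gene's UMIs over all UMIs of the class, scaled to 1000000) in cKO and 524 CPM in control CD3+ Cd8b1-negative T cells, 3.13-fold lower in cKO cells (3.02 to 3.24). In DP cells Ets1 was at 658 CPM in the cKO library and 489 CPM in the control library, a ratio of 1.34 (1.04 to 1.75), so the label was not visible there. The same 3' counts showed Ets1 lower in cKO Trav11+ T (3.21-fold), CD8 T (2.08-fold), NK (4.63-fold) and B cells (2.43-fold). The floxed exons are not named in the labels, and why DP cells differed was not tested. Trav11 made up 22.2% of the Trav UMIs of cKO and 24.4% of those of control CD3+ Cd8b1-negative T cells, so most Trav UMIs of this class came from other segments.

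Of the 7 genes, 4 are neighbours on chromosome 1 of GRCm38. Ly9 (171588624 to 171607410, minus strand), Slamf7 (171632403 to 171653035, minus strand), Slamf1 (171767127 to 171801184, plus strand) and Slamf6 (171917515 to 171953170, plus strand) lie with Cd244a, Cd48 and Cd84 in a cluster of 7 genes that spans 394 kb. Sh2d1a is on chromosome X (42502453 to 42529330, plus strand), Fyn on chromosome 10 (39368855 to 39565381, plus strand) and Cd1d1 on chromosome 3 (86995834 to 86999441, minus strand). All 7 are annotated as protein-coding. Promoters are shown for Slamf1, Slamf6, Slamf7 and Fyn, the 4 members matched in the RefSeq promoter table. They run from 250 bases before to 50 after the RefSeq start on GRCm38.p6. Capitals mark GGAAG on either strand (CTTCC on the printed one), letters that contain the core bound by ETS-family factors. The windows are chr1:171766882-171767181 on the plus strand for Slamf1, chr1:171648950-171649249 on the minus strand for Slamf7, chr1:171917212-171917511 on the plus strand for Slamf6 and chr10:39369549-39369848 on the plus strand for Fyn.
Slamf1: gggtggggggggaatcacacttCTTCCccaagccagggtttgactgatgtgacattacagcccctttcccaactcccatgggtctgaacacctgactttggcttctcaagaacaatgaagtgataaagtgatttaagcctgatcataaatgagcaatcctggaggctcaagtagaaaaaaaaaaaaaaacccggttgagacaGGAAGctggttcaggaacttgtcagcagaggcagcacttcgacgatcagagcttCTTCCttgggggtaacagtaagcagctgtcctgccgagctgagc
Slamf7: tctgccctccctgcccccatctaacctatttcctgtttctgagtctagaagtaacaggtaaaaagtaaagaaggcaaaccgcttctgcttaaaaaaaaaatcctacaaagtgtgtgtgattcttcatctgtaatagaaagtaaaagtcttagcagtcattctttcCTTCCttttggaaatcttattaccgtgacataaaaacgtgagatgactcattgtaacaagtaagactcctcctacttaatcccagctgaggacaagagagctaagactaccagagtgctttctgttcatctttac
Slamf6: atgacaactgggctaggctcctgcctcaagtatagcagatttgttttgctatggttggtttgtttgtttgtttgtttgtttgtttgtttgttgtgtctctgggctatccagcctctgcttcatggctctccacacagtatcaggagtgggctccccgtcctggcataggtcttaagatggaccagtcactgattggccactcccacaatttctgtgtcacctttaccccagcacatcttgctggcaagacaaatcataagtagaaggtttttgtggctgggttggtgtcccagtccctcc
Fyn: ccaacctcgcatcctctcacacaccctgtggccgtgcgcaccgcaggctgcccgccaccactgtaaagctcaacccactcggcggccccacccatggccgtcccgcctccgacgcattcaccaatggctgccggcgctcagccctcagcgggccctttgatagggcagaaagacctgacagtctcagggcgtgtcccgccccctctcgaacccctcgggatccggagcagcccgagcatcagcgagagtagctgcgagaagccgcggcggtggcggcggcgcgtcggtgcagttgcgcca
Slamf1 held 3 matches, which began 228 and 48 bases before the start and 6 bases after it, and the one 48 bases before the start extends to CAGGAAG. Slamf7 held 1 match, 85 bases before its RefSeq start, and Slamf6 and Fyn held none. The windows of Slamf7 and Fyn lie inside the gene coordinates given above, so they describe the RefSeq start only. GGAAG occurs in 71.4% of 32851 RefSeq promoter windows of 300 bases and CAGGAAG in 13.3%, while CCGGAAG, found in 8.86%, is in none of the 4. A match is a description of the letters, not of a bound site.

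Sh2d1a, Slamf6, Slamf7 and Cd1d1 were higher in cKO CD3+ Cd8b1-negative T cells, while Slamf1, Ly9 and Fyn had ratios of 0.925 to 1.1. A gene is called higher or lower with a ratio of 1.5 or more in either direction, 20 CPM or more in one library and a ratio interval without 1 (the size rule). These 4 of 7 stand beside 12.7% of 5964 genes called higher in the class, and 0 of 7 were lower beside 5.08%. Here and below, shares of all genes are over those that reach 20 CPM in one library. Counts of the 7 genes and of gene lists also include genes under 20 CPM, which cannot be called. Of the 7, 6 reached 20 CPM in this class and in Trav11+ T cells, 5 in NK cells and 7 in DP, CD8 T and B cells. The median log2 ratio of all genes tested was above 0, at 0.16 in this class and in Trav11+ T cells, 0.15 in DP, 0.27 in CD8 T and 0.12 in B cells, against -0.04 in NK cells. The median log2 ratio of the 7 genes was 0.79. Of all called genes 71.4% were higher in this class, but 51.3% with median-ratio scaling and 49.0% without mitochondrial and ribosomal protein genes, and the 4 calls were also made under both scalings. Beside them stood 8.09% and 8.14% of all genes higher and 7.69% and 8.47% lower. Over all cells 4 of 7 were higher, beside 16.3% of genes, and 0 lower, beside 5.33%.

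**Figure D1:**
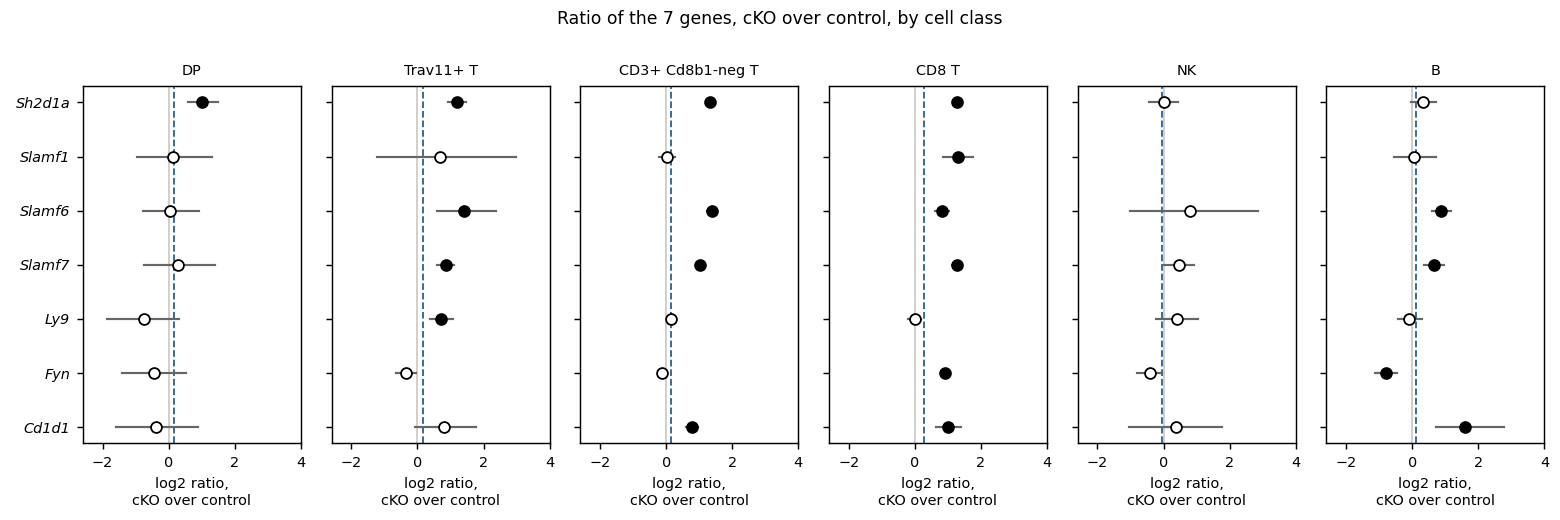
Log2 ratio of the level, cKO over control, of each of the 7 genes in the 6 classes. Lines are exact 95% intervals (counting error only), filled points passed the size rule, the dashed line is the median of all genes tested in that class, and Slamf1 in NK cells is left out at 3 and 0 UMIs. Sh2d1a is filled in all 4 T-lineage classes and open in NK and B cells.

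Cd1d1, which presents lipids to iNKT cells, was counted sparsely. In DP cells it had 14 UMIs, or 51.2 CPM (28.0 to 85.9), in the cKO library and 12 UMIs, or 66.0 CPM (34.1 to 115), in the control library. Their ratio of 0.771 (0.333 to 1.84) leaves a difference of either direction within counting error. DP cells held its highest level in both libraries. In the cKO the DP interval overlapped those of the 5 other classes, while in the control it lay above that of every other class. In CD3+ Cd8b1-negative T cells Cd1d1 was at 28.2 CPM in cKO and 16.3 CPM in control cells, 1.73-fold higher (1.53 to 1.96). It was also higher in CD8 T cells, at 32.5 CPM in the cKO and 16.3 CPM in the control library (2.00-fold, 1.54 to 2.62), and in B cells, at 25.2 and 7.96 CPM (3.03-fold, 1.65 to 6.81). Trav11+ T cells had 24.5 CPM in the cKO and 13.9 CPM in the control library, a ratio whose interval included 1 (1.75, 0.95 to 3.41). The epithelial cells of the cKO library held 3.71 CPM of Cd1d1 (2.08 to 6.12), below every cKO class. Cd1d2, a near copy of Cd1d1, is not analysed here, and reads of the pair may be shared.

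Slamf1 (CD150), a receptor that binds itself on a neighbouring cell, was highest in DP cells, with 73.1 CPM (44.7 to 113) in the cKO and 66.0 CPM (34.1 to 115) in the control library. In Trav11+ T cells 7 cKO and 4 control UMIs gave 5.54 and 3.26 CPM, a ratio of 1.62 (0.432 to 7.92). CD3+ Cd8b1-negative T cells stood at 11.6 and 11.5 CPM, a ratio of 1.02 (0.857 to 1.2). In CD8 T cells Slamf1 was 2.46-fold higher (1.82 to 3.38), at 27.9 CPM in the cKO and 11.3 CPM in the control library. B cells held 24.1 and 23.1 CPM. NK cells held 3 cKO UMIs and 0 control UMIs, and with both at or under 3 counts no ratio is given.

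Slamf6 (Ly108), a self-binding receptor that has been linked to iNKT cell selection together with Slamf1, was 2.60-fold higher (2.38 to 2.84) in CD3+ Cd8b1-negative T cells. Its level there was 70.7 CPM (67.2 to 74.3) in the cKO and 27.2 CPM (25.3 to 29.3) in the control library. Trav11+ T cells had 35.6 and 13.0 CPM (2.68-fold higher in cKO, 1.51 to 5.18), CD8 T cells 97.5 and 55.3 CPM (1.76-fold, 1.53 to 2.04) and B cells 176 and 95.5 CPM (1.83-fold, 1.51 to 2.25). In CD8 T cells the call was lost with median-ratio scaling and with totals that leave out mitochondrial and ribosomal protein genes. In DP cells the libraries stood at 121 CPM (83.1 to 170) and 115 CPM (71.5 to 177), a ratio of 1.04 (0.587 to 1.90). The order of the levels was alike in both libraries, with B and DP cells on top, their intervals overlapping, then CD8 T (overlapping DP in the cKO), CD3+ Cd8b1-negative T, Trav11+ T and NK cells, the last pair again with overlapping intervals.

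Slamf7 (CRACC), a self-binding receptor known from NK and cytotoxic cells, was higher in 4 of 6 classes of the cKO. Trav11+ T cells had 297 CPM (268 to 329) in the cKO and 165 CPM (143 to 189) in the control library, 1.80-fold higher (1.52 to 2.15). CD3+ Cd8b1-negative T cells had 285 and 140 CPM (2.04-fold, 1.96 to 2.12), CD8 T cells 202 and 83.2 CPM (2.42-fold, 2.17 to 2.71) and B cells 140 and 88.3 CPM (1.58-fold, 1.29 to 1.97). The B cell call was lost in 4 of 12 alternative settings. DP cells, with 87.8 and 71.5 CPM, gave a ratio of 1.21 (0.601 to 2.63), and NK cells, with 203 and 146 CPM, a ratio of 1.38 (1.01 to 1.90). Trav11+ T cells held the highest value in both libraries and DP cells the lowest, but both intervals overlapped that of the neighbouring class.

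Ly9 (CD229), a further self-binding SLAM receptor, was higher in Trav11+ T cells, at 147 CPM (127 to 170) in the cKO and 88.9 CPM (73.0 to 107) in the control library, 1.65-fold (1.30 to 2.12). That call was made in 9 of 12 alternative settings. In CD3+ Cd8b1-negative T cells it stood at 114 and 103 CPM, a ratio of 1.1 (1.04 to 1.16) whose side of 1 changed with the scaling. CD8 T cells had 78.0 and 78.2 CPM, NK cells 106 and 80.6 CPM, B cells 65.6 and 69.2 CPM and DP cells 54.8 and 93.5 CPM, none past the size rule. In the control library the intervals of every pair of neighbouring classes overlapped. Ly9 overlaps Cd244a on the opposite strand.

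Sh2d1a, the SAP gene, was higher in cKO cells of all 4 T-lineage classes, which share cells. In CD3+ Cd8b1-negative T cells it had 7591 UMIs, or 346 CPM (339 to 354), in the cKO and 3672 UMIs, or 137 CPM (133 to 142), in the control library, 2.52-fold (2.42 to 2.62). Trav11+ T cells had 321 and 140 CPM (2.28-fold, 1.91 to 2.75), and CD8 T cells 397 and 164 CPM (2.42-fold, 2.24 to 2.62). In DP cells 168 cKO UMIs gave 614 CPM (525 to 715) and 55 control UMIs 302 CPM (228 to 394), 2.02-fold (1.49 to 2.81). NK cells stood at 189 and 187 CPM, a ratio of 1.01 (0.744 to 1.37), and B cells at 78.4 and 62.1 CPM, a ratio of 1.26 (0.981 to 1.64). DP cells were highest and B cells lowest in both libraries. Sh2d1a is X-linked, and over all cells the X-inactivation RNA Xist was at 874 CPM in the cKO and 829 CPM in the control library, with 0 UMIs of Y-linked Ddx3y in both. Tenm1, which overlaps Sh2d1a on the opposite strand, was at 0.365 CPM in cKO and 0.187 CPM in control CD3+ Cd8b1-negative T cells.

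The DP call for Sh2d1a rests on the cells that the Rag1 rule took. Their summed DP markers reached 9979 CPM in the cKO and 5818 CPM in the control library with all 11 detected in both, the summed NK markers 84.1 and 660 CPM, the iNKT markers 358 and 665 CPM and the B markers 1532 and 511 CPM. Of the DP cells 52 of 57 in the cKO and 38 of 58 in the control library also held Cd8b1 and CD3. With a stricter combination of markers, chosen after the values were seen, 55 cKO and 39 control cells remained and the log2 ratio was 0.58, not past the size rule, against 1.01 here. The part of the other markers in the result was not tested.

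Fyn, the Src-family kinase that SAP recruits, moved in opposite directions in different classes. In CD8 T cells it was at 330 CPM (315 to 344) in the cKO and 174 CPM (163 to 186) in the control library, 1.89-fold higher (1.75 to 2.05). In B cells it was at 55.7 CPM (48.4 to 63.8) and 96.3 CPM (79.9 to 115), 1.73-fold lower in the cKO (1.37 to 2.17). CD3+ Cd8b1-negative T cells had 143 and 154 CPM, a ratio of 0.925 (0.883 to 0.97), and Trav11+ T cells 130 and 166 CPM, a ratio of 0.785 (0.635 to 0.969). NK cells had 233 and 311 CPM, a ratio of 0.751 (0.579 to 0.966), and DP cells 76.8 and 104 CPM, a ratio of 0.733 (0.376 to 1.45). CD8 T cells held the highest level in the cKO, and NK cells in the control library, each apart from the next class. The difference between CD8 T and B cells was not tested.

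**Figure D2:**
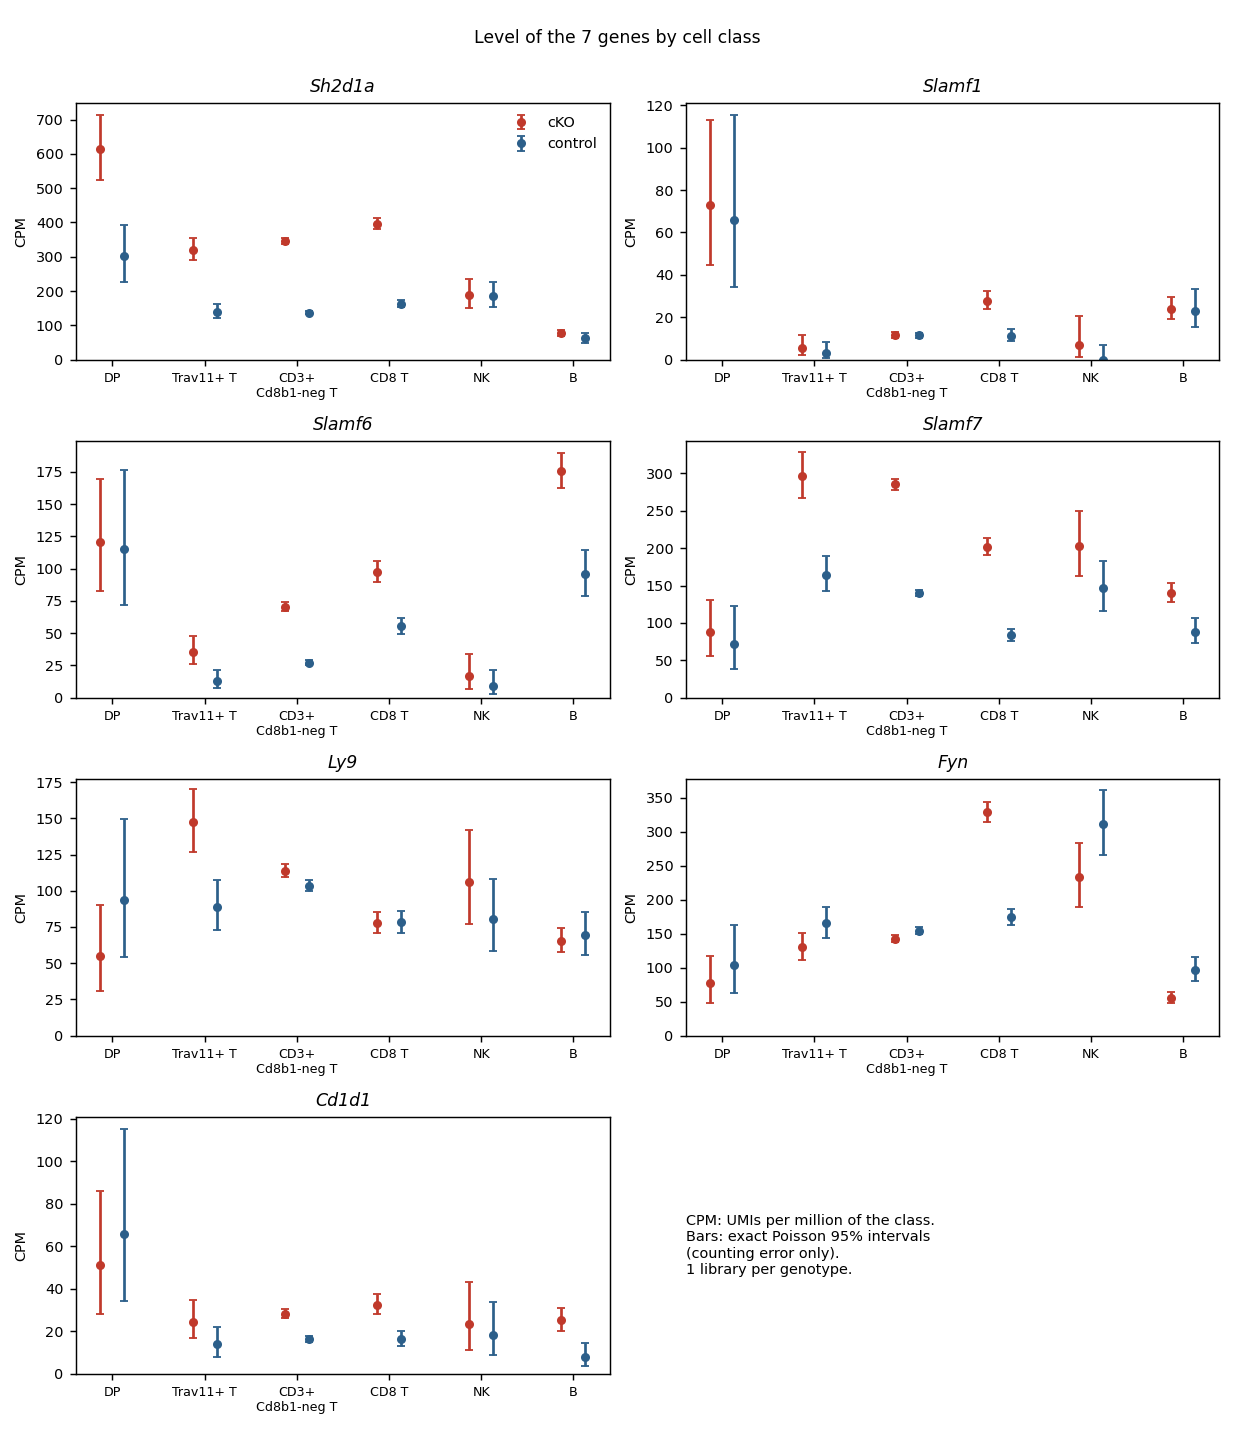
Level of each of the 7 genes in CPM by class, with cKO in red left of control in blue. Bars are exact 95% Poisson intervals that cover counting error only. Sh2d1a lies at 614 and 302 CPM in DP cells, and the control NK level of 311 CPM of Fyn lies above all other control classes.

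In CD8 T cells 6 of 7 genes were higher, all but Ly9, beside 22.3% of 5912 genes, and 0 of 7 were lower beside 6.29%. With median-ratio scaling 5 were higher, beside 10.9% of genes higher and 11.6% lower, and without mitochondrial and ribosomal protein genes 5, beside 9.53% and 13.5%, so that 48.3% and 41.4% of called genes were higher, against 78.0% here. Slamf6 was the call lost. The CD8 T markers summed to 21823 CPM in the cKO and 3969 CPM in the control library. Little of either sum came from the lineage genes. Cd8a had 980 CPM in the cKO against 367 CPM in the control library, and Cd8b1 1400 against 762 CPM. Eomes was almost level (116 against 111 CPM). NK cells summed to 13172 and 13150 CPM on the same list, so the sum does not measure CD8 identity alone. The DP markers summed to 2948 and 1398 CPM in CD8 T cells. Globin and haem genes of erythroid cells summed to 1.68 and 547 CPM. The part of these 3 lists in the ratios was not tested. With at least 2 UMIs of each class marker, 6 of the 7 genes were still higher, beside 24.6% of all genes higher and 7.11% lower. In Trav11+ T cells 4 of 7 were higher (Sh2d1a, Slamf6, Slamf7 and Ly9), beside 16.1% of 6159 genes, and 0 lower beside 7.66%. With median-ratio scaling 3 were higher, beside 10.9% of genes higher and 11.2% lower, and without mitochondrial and ribosomal protein genes 3, beside 9.20% and 12.1%, the call of Ly9 being lost. The CD8 T markers summed to 1687 CPM in cKO and 706 CPM in control Trav11+ T cells. Cd8a gave 57.0 and 8.97 CPM of this and Cd8b1 74.4 and 19.6 CPM, so most came from other genes of the list. The NK markers summed to 537 and 1139 CPM and the erythroid genes to 0.792 and 214 CPM. The part of these lists was not tested. In DP cells 1 of 7 was higher beside 6.91% of 6957 genes, and 0 lower beside 4.24%. NK cells had 0 of 7 in either direction, beside 7.13% of 6308 genes higher and 9.78% lower.

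In B cells 3 of 7 were higher (Slamf6, Slamf7 and Cd1d1) beside 15.1% of 5883 genes, and 1 of 7 was lower (Fyn) beside 5.49%. A CD3 UMI was held by 170 of the 481 cKO and 253 of the 308 control B cells, and the 10 T markers, all detected, summed to 1773 and 3141 CPM. Gut epithelium genes summed to 4269 CPM in cKO and 10.3 CPM in control B cells. After thinning to 1500 UMIs the log2 ratio of Fyn in B cells was -0.04, against -0.79. With B cells that met no other class rule, the log2 ratio of Fyn was -1.32 and that of Sh2d1a -1.91, where Sh2d1a was at 0.33 over all B cells. The part of these markers was not tested beyond that.

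Sh2d1a and Slamf6 were higher in the cKO in each of 5 overlapping subsets of the CD3+ Cd8b1-negative T cells, and Slamf7 in 3 of them. The subsets hold at least 1 UMI of Tbx21 (1537 cKO and 1638 control cells), Klrb1c, the NK1.1 gene (351 and 2396), Zbtb16, the PLZF gene (660 and 884), Izumo1r, the folate receptor 4 gene (351 and 2062), or Cd4 (340 and 669). Sh2d1a was at 375 CPM in Tbx21+ cells of the cKO and 127 CPM in those of the control library (2.96-fold, 2.79 to 3.15), and its ratio was 2.83 in Klrb1c+, 2.37 in Zbtb16+, 2.66 in Izumo1r+ and 2.64 in Cd4+ cells. A cell can be in several subsets, and median depths ran from 7103.5 to 8146 UMIs in the cKO and from 6092 to 7019.5 UMIs in the control subsets.

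Slamf6 reached its largest ratios in Cd4+ cells, at 264 CPM (245 to 284) in the cKO and 47.9 CPM (41.7 to 54.7) in the control library (5.50-fold, 4.73 to 6.44), and in Izumo1r+ cells, at 173 and 32.0 CPM (5.41-fold, 4.75 to 6.16). In Tbx21+ cells it was at 39.6 and 19.1 CPM (2.07-fold, 1.76 to 2.45), in Klrb1c+ cells at 31.6 and 17.3 CPM (1.84-fold) and in Zbtb16+ cells at 45.4 and 27.5 CPM (1.65-fold). Slamf7 was higher in Tbx21+ cells, at 327 and 156 CPM (2.1-fold, 1.98 to 2.22), in Klrb1c+ cells, at 308 and 152 CPM (2.03-fold), and in Zbtb16+ cells, at 284 and 143 CPM (1.99-fold). In Izumo1r+ cells Slamf7 stood at 141 and 129 CPM, a ratio of 1.1 (0.986 to 1.22), and in Cd4+ cells at 119 and 127 CPM, a ratio of 0.940 (0.819 to 1.08). The differences between subsets were not tested.

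**Figure D3:**
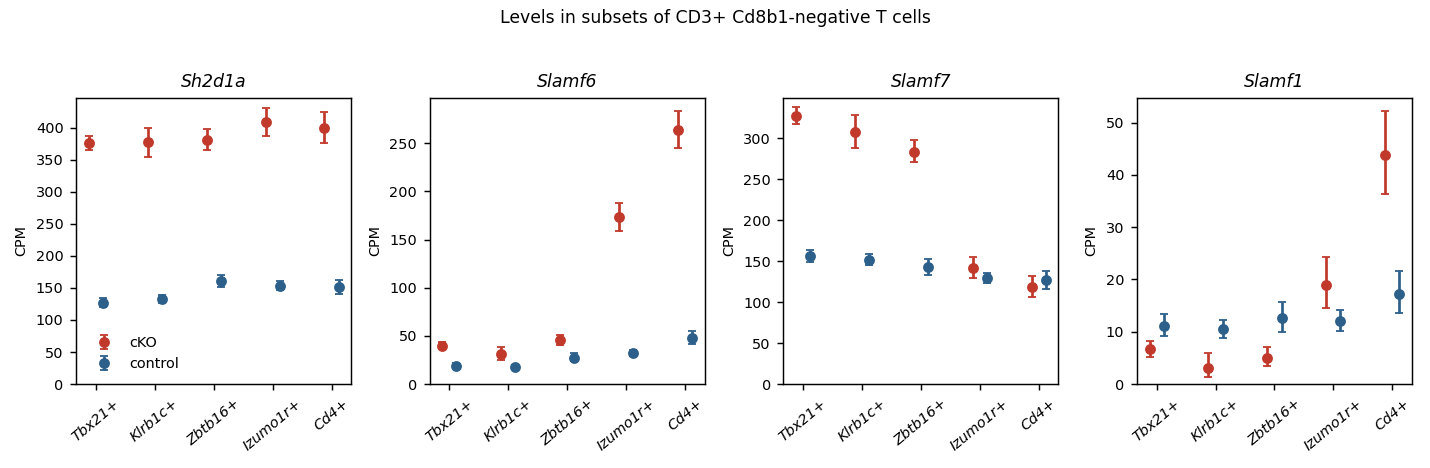
Level in CPM of 4 of the genes in subsets of CD3+ Cd8b1-negative T cells that hold at least 1 UMI of the named gene, cKO in red left of control in blue, with exact 95% Poisson intervals (counting error only). Slamf6 stands at 264 and 47.9 CPM in Cd4+ cells, and Slamf7 at 327 and 156 CPM in Tbx21+ cells.

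Genes of regulatory T cells differed most in Cd4+ and Izumo1r+ cells, which had the largest Slamf6 ratios of the 5 subsets. Summed over Foxp3, Il2ra, Ctla4, Tnfrsf4 and Ikzf2, a list of 5 genes chosen after their values were seen, the level was 984 CPM in cKO and 244 CPM in control Cd4+ cells, and 736 and 228 CPM in Izumo1r+ cells, with none of the 5 at 0. In Tbx21+ cells it was 316 and 170 CPM, in Klrb1c+ cells 276 and 157 CPM and in Zbtb16+ cells 342 and 206 CPM, mostly from Ikzf2 (279 and 151, 259 and 143, and 318 and 186 CPM). Ctla4 lay the other way in Klrb1c+ cells, at 0.695 and 4.73 CPM, and in Zbtb16+ cells, at 3.34 and 6.48 CPM, and Foxp3 was at 0 and 0.480 CPM in Klrb1c+ cells. Foxp3, the regulatory T cell factor, was at 56.8 and 2.22 CPM in Cd4+ cells. Trav11 made up 2.79% (0.913 to 6.40) of the Trav UMIs of cKO Cd4+ cells and 13.4% (8.67 to 19.4) of those of control Cd4+ cells. Without cells that held a UMI of Cd4, Foxp3, Ctla4 or Tnfrsf4, which left 2514 cKO and 5355 control cells, Slamf6 was at 36.6 and 20.9 CPM, 1.75-fold higher (1.55 to 1.98), against 2.60-fold over the whole class. Slamf7 was then 2.19-fold (2.09 to 2.29), Sh2d1a 2.55-fold (2.44 to 2.66) and Cd1d1 1.63-fold higher (1.42 to 1.88).

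Slamf1 was also uneven across the subsets. It was higher in Cd4+ cells, at 43.8 CPM in the cKO and 17.3 CPM in the control library (2.52-fold, 1.89 to 3.40). In Klrb1c+ cells it stood at 3.13 and 10.5 CPM (ratio 0.314, 0.134 to 0.581), in Zbtb16+ cells at 5.01 and 12.6 CPM (0.40, 0.251 to 0.609) and in Tbx21+ cells at 6.62 and 11.1 CPM (0.595, 0.443 to 0.793), all under the 20 CPM that a call needs. Ly9 and Fyn passed the size rule in none of the 5 subsets, with ratios of 0.897 to 1.16 for Ly9 and 0.831 to 1.19 for Fyn. Cd1d1 was higher in Tbx21+, Klrb1c+, Izumo1r+ and Cd4+ cells, by 1.60-fold, 1.72-fold, 1.95-fold and 2.37-fold, and stood at 22.7 and 17.6 CPM in Zbtb16+ cells (1.29, 0.999 to 1.68). The counts of genes called higher were 4 of 7 in Tbx21+ cells beside 13% of all genes, 4 in Klrb1c+ cells beside 15.9%, 3 in Zbtb16+ cells beside 11.4%, 3 in Izumo1r+ cells beside 8.28% and 4 in Cd4+ cells beside 11.6%. Counts of genes called lower were 0 of 7 in each, beside 6.08% of all genes in Tbx21+, 7.63% in Klrb1c+, 5.53% in Zbtb16+, 5.11% in Izumo1r+ and 6.58% in Cd4+ cells.

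Fxyd7, a sodium pump regulator, was held by 1487 cKO and 2 control cells of the class, so its cells were set against the other 1489 cKO cells. Slamf6 was at 37.4 CPM in Fxyd7+ and 104 CPM in Fxyd7-negative cKO cells, a ratio of 0.361 (0.321 to 0.404), and Slamf1 at 6.15 and 17.1 CPM, a ratio of 0.362 (0.269 to 0.479). Slamf7 was at 342 and 229 CPM, a ratio of 1.49 (1.42 to 1.57), and Sh2d1a at 366 and 327 CPM, a ratio of 1.12 (1.07 to 1.17). Ly9, Fyn and Cd1d1 had ratios of 1.13, 0.879 and 0.858. The split uses a measured gene within 1 library and describes cells of that library alone.

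After each cell was thinned to 1500 UMIs, which left 2867 of 2976 cKO and 4329 of 6236 control CD3+ Cd8b1-negative T cells, Sh2d1a was seen in 38.0% (36.2 to 39.8) of cKO and 17.8% (16.6 to 18.9) of control cells. Without thinning, the shares were 74.2% and 37.0%, at median depths of 6744 and 2582.5 UMIs. Slamf7 was seen in 34.6% and 17.7% of thinned cells, Slamf6 in 7.67% and 3.51%, Cd1d1 in 4.46% and 2.52%, Ly9 in 16.1% and 13.5%, Fyn in 18.6% and 20.1% and Slamf1 in 1.54% and 1.57%. In epithelial cells of the cKO, at a median of 1416 UMIs, the thinned shares ran from 0%, for Slamf1, to 1.14%, for Sh2d1a. A count of 0 there allows a share of up to 0.379% of cells with a UMI. In B cells, at median depths of 6854 and 1853 UMIs, Sh2d1a was seen in 8.83% of thinned cKO and 11.5% of thinned control cells and Fyn in 7.53% and 9.5%. Thinned DP cells, 57 of 57 in the cKO and 38 of 58 in the control library, held Sh2d1a in 68.4% (54.8 to 80.1) and 23.7% (11.4 to 40.2). In 11 of the 42 pairs of gene and class the thinned shares lay in the order opposite to the CPM, and no order is read from them. These were Slamf6, Slamf7, Ly9 and Cd1d1 in DP cells, Slamf1 in Trav11+ T and in CD3+ Cd8b1-negative T cells, Ly9 in CD8 T cells, Sh2d1a and Slamf6 in NK cells, and Sh2d1a and Slamf7 in B cells.

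**Figure D4:**
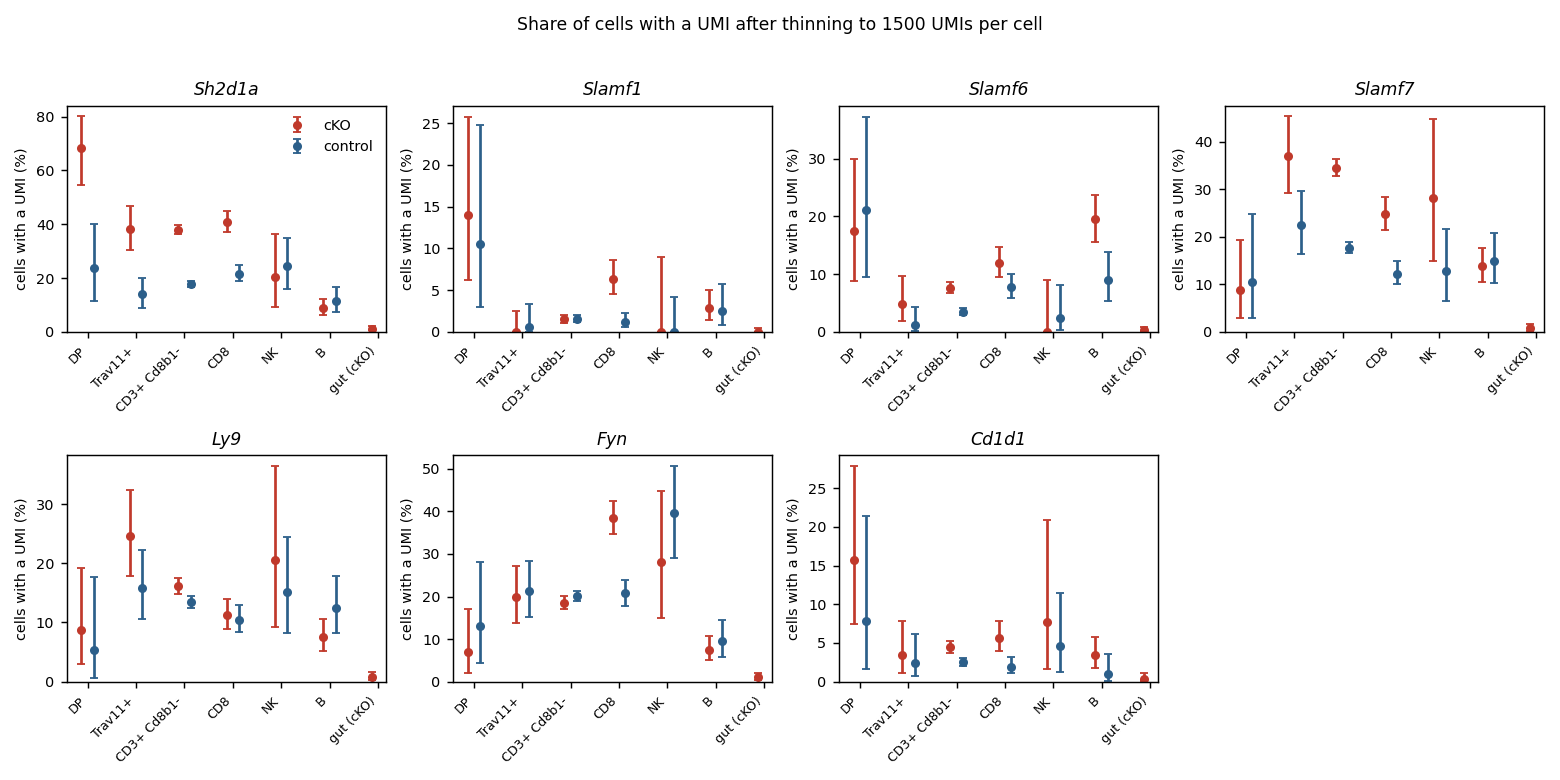
Share of cells with a UMI of each gene after thinning to 1500 UMIs per cell, cKO in red left of control in blue, with exact 95% Clopper-Pearson intervals (counting error only) and the cKO epithelial cells of gut type at the right. Sh2d1a stands at 38.0% and 17.8% in CD3+ Cd8b1-negative T cells, against 1.14% in the epithelial cells.

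Of the 7 further family members and adaptors with a row, 0 were called in CD3+ Cd8b1-negative T cells in either direction, beside 12.7% of all genes higher and 5.08% lower, where 2 of them reached 20 CPM and their median log2 ratio was 0.01. Cd84, a self-binding receptor, stood at 83.6 CPM in the cKO and 106 CPM in the control library, and Cd48, the ligand of 2B4, at 240 and 186 CPM. Cd244a, the gene of 2B4, had 10.7 and 14.2 CPM and Sh2d1b1, which encodes the SAP-related adaptor EAT-2, 2.28 and 2.02 CPM. In CD8 T cells Cd48 was 1.99-fold higher (1.84 to 2.15), at 371 and 186 CPM, 1 of the 7 beside 22.3% of all genes. Of the 7, 2 reached 20 CPM in CD8 T cells and 4 in NK cells. In NK cells 3 of the 7 were lower and 0 higher, beside 7.13%. Cd244a was at 118 CPM in cKO and 205 CPM in control NK cells (1.73-fold lower, 1.24 to 2.48), Cd84 at 77.8 and 121 CPM (1.54-fold lower, 1.01 to 2.44) and Sh2d1b1 at 25.9 and 64.1 CPM (2.40-fold lower, 1.23 to 5.40). Of all genes, 9.78% were lower in NK cells. The 8 NK markers also summed to less in the cKO, at 7425 CPM against 9460 CPM in control NK cells, with Ncr1 at 695 and 915 CPM, and gut epithelium genes summed to 1484 and 7.32 CPM, 49.1% of cKO NK cells holding such a UMI. The part of these in the 3 ratios was not tested.

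Of 20 signalling partners of SAP and Fyn, 3 were higher in CD3+ Cd8b1-negative T cells, beside 12.7% of all genes, and 2 lower, beside 5.08%, with a median log2 ratio of -0.05. Rasa1, a Ras GTPase-activating protein, was at 189 CPM in the cKO and 104 CPM in the control library (1.81-fold higher, 1.72 to 1.90), and Ptpn11, the SHP-2 phosphatase gene, at 37.5 and 24.8 CPM (1.51-fold, 1.36 to 1.68). Pag1, a membrane adaptor that Fyn phosphorylates, was at 56.2 and 104 CPM (1.86-fold lower, 1.74 to 1.99), and Malt1, a protease of the NF-kB route, at 102 and 183 CPM (1.78-fold lower, 1.70 to 1.88). In DP cells 1 of the 20, Ptpn11, was higher, beside 6.91%, and 0 lower, beside 4.24%. Lck, the other main Src-family kinase of T cells, stood at 335 and 348 CPM in CD3+ Cd8b1-negative T cells. Of 7 kinases beside Fyn, 1 reached 20 CPM there and 0 were called, beside 12.7% of all genes higher and 5.08% lower.

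Of 15 genes of lipid loading and CD1d traffic, 2 were higher, beside 12.7% of all genes, and 0 lower, beside 5.08%, in CD3+ Cd8b1-negative T cells, with a median log2 ratio of 0.37. Of the 15, 12 reached 20 CPM in this class and 12 in DP cells. Cd74, the invariant chain, was at 714 and 229 CPM (3.11-fold higher, 3.02 to 3.21), and the lysosomal protein gene Lamp1 at 124 and 54.2 CPM (2.29-fold, 2.15 to 2.44). The 9 B markers summed to 3325 and 2854 CPM there, and their part in the Cd74 level was not tested. In DP cells, where 6.91% of genes were higher and 4.24% lower, 2 of the 15 were higher, Cd74 at 1207 and 176 CPM and Lamp1 at 154 and 82.5 CPM, and 2 lower, B2m, the partner chain of CD1d, at 680 and 1386 CPM (2.04-fold, 1.68 to 2.48) and Gm2a, a lipid transfer protein gene, at 7.31 and 66.0 CPM (7.52-fold, 2.01 to 83.0). The B markers stood at 1532 and 511 CPM and the NK markers at 84.1 and 660 CPM in these DP cells, and their part was not tested.

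Of 12 factors of the selection stage, 1 was higher, beside 12.7% of all genes, and 1 lower, beside 5.08%, in CD3+ Cd8b1-negative T cells. Of the 12, 9 reached 20 CPM in this class and 11 in DP cells. Myb, a factor of thymocyte survival, was at 28.2 and 10.9 CPM (2.59-fold higher, 2.26 to 3.0), and Hivep3, also called Schnurri-3, at 8.12 and 27.7 CPM (3.40-fold lower, 2.89 to 4.04). Zbtb16 stood at 44.8 and 47.6 CPM and Egr2, a factor induced by strong receptor signals, at 12.2 and 7.11 CPM. In DP cells 3 of the 12 were higher, beside 6.91%, and 0 lower, beside 4.24%, namely Tcf12, which encodes the E protein HEB, at 464 and 231 CPM (1.99-fold, 1.41 to 2.92), Myb at 442 and 236 CPM (1.86-fold, 1.31 to 2.72) and Cd24a at 172 and 93.5 CPM (1.80-fold, 1.04 to 3.42). The summed DP markers differed in the same direction, at 9979 and 5818 CPM, and their part was not tested.

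Over the 10 profiles of 5 classes in both libraries, on log2(CPM + 10), the genes whose levels ran most like each of the 7 were found among 4348 candidates. They were Cd247, Stk4 and Rdx for Sh2d1a (Pearson r of 0.961, 0.951 and 0.948), Rpa3, Psma6 and Dut for Slamf1 (0.978, 0.963 and 0.962) and Tex30, Hint3 and Ralgps2 for Slamf6 (0.952, 0.935 and 0.920). For Slamf7 they were Atp6v0e, Chst2 and Atp2b1 (0.940, 0.924 and 0.920) and for Ly9 Klra1, Mogs and Dnajc19 (0.935, 0.919 and 0.910). Fyn ran most like Pfkp, Ostf1 and Hsd11b1 (0.935, 0.927 and 0.925) and Cd1d1 most like Stag1, Smarcc2 and Hist1h4d (0.969, 0.958 and 0.949). The profiles of 1 library share its depth and preparation, so these values are descriptions.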

How the data were processed

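RNA of sorted YFP+ thymus cells was counted with the 10x single-cell 3' v2 kit, per the labels' protocols. The authors deposited whole-number UMI counts per gene and barcode, made with Cell Ranger 2.1.1 on mm10 per the submitters' processing notes, although the matrix headers name 3.0.0, a difference not resolved. Of aligner settings, annotation and doublet removal, nothing is given in the sources used here. Cells needed 500 genes or more and 10% mitochondrial UMIs or less, and doublets stayed in. UMIs were summed per class and divided by the class total (CPM), and ratios have 0.5 UMIs added to both sums. Levels have exact Poisson, shares Clopper-Pearson and ratios conditional binomial intervals, and no ratio is given with both counts at or under 3. Shares were taken from cells thinned to 1500 UMIs. The size rule was run on simulated counts with counting error only, which hold no variation between mice or libraries. In the alternative setting that weights every cell equally, calls were made without the interval. All 7 genes were named whatever their values, as were Cd84, Cd244a, Cd48, Sh2d1b1, Zbtb16, Egr2 and Lck, and from each pathway list up to 4 genes past the size rule with the largest ratios. A gene that this rule names is not reported here. Sequences and promoters are RefSeq's (GRCm38.p6), with a window for 4 of the 7, and coordinates are GENCODE vM21's, which held 99.6% of the identifiers. The members, lists and tests were chosen with earlier results of these data known. Software was matplotlib 3.10.9, pandas 2.3.3, scipy 1.17.1 and numpy 2.4.6 under Python 3.11.15.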

Additional observations from a re-analysis of the deposited data

Results flagged for a closer look

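Fyn went in opposite directions in CD8 T and B cells, with a log2 ratio, cKO over control, of 0.92 in CD8 T cells and -0.79 in B cells. The difference between the classes was not tested. Under 12 alternative settings Fyn was called higher in CD8 T cells in 12 and lower in B cells in 10. With every cell weighted equally, 1 of the 12, a call needed no interval. After thinning to 1500 UMIs the log2 ratio in B cells was -0.04. A CD3 UMI was held by 170 of 481 cKO and 253 of 308 control B cells, and the T markers summed to 1773 and 3141 CPM; their part in the result was not tested.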

How the results depend on the processing

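In CD3+ Cd8b1-negative T cells Sh2d1a, Slamf6, Slamf7 and Cd1d1 were higher in the cKO under all 13 alternatives, beside 8.09% to 17.7% of all genes. No called value changed sign in any class. With every cell weighted equally, calls needed the ratio of 1.5 and 20 CPM but no interval. The log2 ratio there of Sh2d1a (1.33) was 1.40 with a 5% mitochondrial limit, 1.17 without mitochondrial and ribosomal protein genes, 1.19 with median-ratio scaling, 1.23 with every cell weighted equally, 1.42 after thinning and 1.41 with the stricter markers. Without mitochondrial and ribosomal protein genes, with median-ratio scaling, that of Slamf6 (1.38) was 1.21 and 1.24, of Slamf7 (1.03) 0.86 and 0.89, of Ly9 (0.14) -0.029 and -0.0029, and of Fyn (-0.11) -0.28 and -0.25. With every cell weighted equally it was 0.29 for Slamf1 (0.02), 1.13 for Slamf7 and 0.25 for Ly9, and after thinning 1.21 for Slamf7 and 0.27 for Ly9. Slamf7 was at 1.11 without the 5% deepest cells and at 1.1 without cells holding a gut UMI. Without cells holding Cd4, Foxp3, Ctla4 or Tnfrsf4, chosen after seeing the data, it was -0.68 for Slamf1, 0.81 for Slamf6 and 1.13 for Slamf7. In DP cells 3 genes were higher with equal weights, beside 33.97% of all genes, and 0 with the stricter markers, beside 4.27%. With at least 2 marker UMIs 1 was lower, beside 3.44% of all genes. In Trav11+ T cells a 2-fold rule kept the calls of Sh2d1a and Slamf6. It kept those of Sh2d1a, Slamf1 and Slamf7 in CD8 T cells and of Cd1d1 in B cells. The share of all genes under that rule was not taken. In NK cells 1 was higher with the 5% limit (beside 6.64% of all genes), equal weights (28.55%), at least 3000 UMIs (6.75%) and thinning (3.145%). Without the deepest cells (7.23%) and without gut UMIs (6.50%) 1 was also higher, and 1 was lower with equal weights (22.88%). In B cells 1 was higher with equal weights (beside 25.48% of all genes) and after thinning (12.5%), and 2 were lower with equal weights (12.74%). With the 5% limit (5.05%) or after thinning (5.18%) 0 were lower, and Fyn, 1.73-fold lower in the main setting, did not reach 2-fold. The cause of these changes was not tested. DP cells had too few cells per library for mutually exclusive classes or for at least 3000 UMIs. No paired analysis was possible because each genotype has 1 library, which also bars leaving out a replicate. Depth limits the small classes: with 14 cKO and 12 control UMIs of Cd1d1 in DP cells, ratios from 0.333 to 1.84 lay within counting error, and with 10 and 10 in NK cells, ratios from 0.481 to 3.45.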

Other observations

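Other Src-family kinases were also called in B cells, beside 15.1% of genes called higher there and 5.49% called lower. Blk, a B cell kinase, was at 87.3 CPM in the cKO and 39.8 CPM in the control library (2.18-fold higher, 1.62 to 3.02), and Lyn, a kinase of B cell receptor signalling, at 131 and 62.9 CPM (2.08-fold, 1.65 to 2.69). Lck, a T cell kinase, was 1.97-fold lower (1.62 to 2.38), at 73.6 CPM in the cKO and 145 CPM in the control library. The control B class held CD3 UMIs in 253 of 308 cells, and the part of this in these ratios was not tested.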
